A study of Mus musculus with 6 samples.

Results

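Genes of glucose uptake, glycolysis, lactate handling, the pentose phosphate pathway and the hypoxia response were followed through 6 mouse Th2 cell arrays. The set was a fixed list of 37 genes, each read from 1 probe set of the array, namely the one whose mean log2 signal was highest of all that name the gene and no other. Of the 37 genes, 33 had such a probe set, out of 18194 genes on the array. Gpi1, Pfkfb1, Eno1 and G6pdx had none and were not analysed here.

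Glycolysis splits glucose into pyruvate. Slc2a transporters bring glucose in, hexokinases and phosphofructokinases commit it to the pathway, and a run of lower enzymes yields pyruvate, which is either reduced to lactate and exported or passed to the mitochondria through pyruvate dehydrogenase. T cells are known to raise glucose uptake and glycolysis after they are stimulated through the T cell receptor, and the factors Myc and HIF drive many of these genes.

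The cells were splenic CD4 T cells of C57BL/6 mice. Th2-4th cells were Th2 cells kept through repeated rounds of anti-TCR restimulation with IL-2 and anti-IL-4 after a rest of 2 days without added cytokines. Th2-1st cells were effector Th2 cells from 5 days of culture started with anti-TCR and anti-CD28 and given 25 U/ml IL-2 and 100 U/ml IL-4. Each culture was nucleofected with GATA3 siRNA or control siRNA, and 24 h later GATA3 siRNA cells were stimulated with immobilised anti-TCR for 4 h, control siRNA cells were stimulated likewise, and further control siRNA cells were left unstimulated. Every condition had 1 array, so no ratio below has a replicate check, an SD or a p-value. GATA3 siRNA cells without anti-TCR were not among the arrays, 1 siRNA against GATA3 was used, and the cultures differed in age, restimulation and IL-4 blockade together, which cannot be told apart. In such bulk RNA, a change in the share of cells that express a gene and a change in RNA per cell cannot be told apart either.

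The deposited values were signal intensities with a trimmed mean of 500.0 on every array, a median between 61.8 and 74.2 and a brightest probe set between 36674 and 58757. Gata3, the siRNA target, gave 2853 (GATA3 siRNA), 9261 (stimulated control) and 4846 (unstimulated control) in Th2-4th cells, and 1798 (GATA3 siRNA), 4883 (stimulated control) and 3312 (unstimulated control) in Th2-1st cells. It was lower on the GATA3 siRNA array than on both control arrays of its culture. All 9 measured T cell markers were above the array median on every array, and 0 to 1 of 5 B cell, 1 to 2 of 8 myeloid and 0 to 2 of 5 mast cell and basophil markers were. The summed T cell marker signal was 94042 (Th2-4th) and 65636.5 (Th2-1st) in stimulated controls. In unstimulated controls it was 100782 and 68415. In Th2-4th over Th2-1st cells Cd4 stood at 1.35 with and 1.40 without stimulation and Cd3g at 1.64 and 1.18. Cd247 (-0.27 and -0.53) and Cd28 (-0.49 and -0.15) were lower. Of 5 CD8 T and NK cell markers, 2 (Cd8a and Cd8b1) were above the array median on every array. In Th2-4th over Th2-1st cells Cd8b1 stood at -0.94 with and -1.63 without stimulation, and Cd8a at 0.43 and -0.02. The part of these T cell and CD8 markers in the comparisons of the cultures was not tested. The 3' to 5' ratio of the array's Gapdh controls lay between 0.764 and 0.884. That of the actin controls was 1.02 on the unstimulated Th2-1st array and 1.23 to 1.37 on the other arrays, a difference that runs along with the anti-TCR comparison in Th2-1st cells and with the comparison of the unstimulated cultures, and whose part in them was not tested.

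A gene was called higher or lower where its signal differed at least 2-fold between the 2 arrays of a comparison, that is by 1 on the log2 scale. As the only available measure of error, the spread of a gene was taken as a robust SD, computed in the same pair of arrays from the log2 ratios of genes with a similar signal, which holds both noise and true change. Its median over the measured genes of the list, not over all genes, was 0.24 and 0.16 for GATA3 siRNA in Th2-4th and Th2-1st cells, 0.89 and 0.74 for anti-TCR in Th2-4th and Th2-1st cells, and 0.55 and 0.63 between the cultures with and without stimulation. Comparisons that use the same array are not independent of each other. The stimulated control array of each culture enters 3 comparisons and the unstimulated control array enters 2.

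As a whole the pathway was strongly expressed. Of the 33 genes, 29 were above the array median on all 6 arrays, and Gapdh, Pgk1, Ldha and Tkt came within 2-fold of the brightest probe set of at least 1 array. Pfkfb2, Slc16a3 and Pdk2 crossed the array median, and Eno2 was below it on all 6 arrays. By the probe sets used, the signals of 13 genes stayed within a 2-fold range over the 6 arrays, and 17 genes were within 2-fold in all 6 comparisons. Among the enzymes of this kind, Gapdh, which oxidises glyceraldehyde phosphate, ranged over 19521 to 27913, Pgk1, the first ATP-yielding enzyme of the pathway, over 20309.8 to 28689, Pkm, the pyruvate kinase, over 3984 to 6242 and Tkt, the transketolase of the pentose phosphate pathway, over 19752 to 28465. Gapdh was read from the array's 5' control probe set, and several of these genes have processed pseudogenes in the mouse, so their probe sets may also take up other transcripts. The probe set used for Tkt can cross-hybridise, and one that cannot gave 3413 (Th2-4th) and 5704 (Th2-1st) in unstimulated control cells, a log2 ratio of -0.74 where the one used gave 0.09. Whether ratios are compressed so near the top of the signal range was not tested. The 16 genes past 2-fold in at least 1 comparison are described below, the anti-TCR response first.

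**Figure D1:**
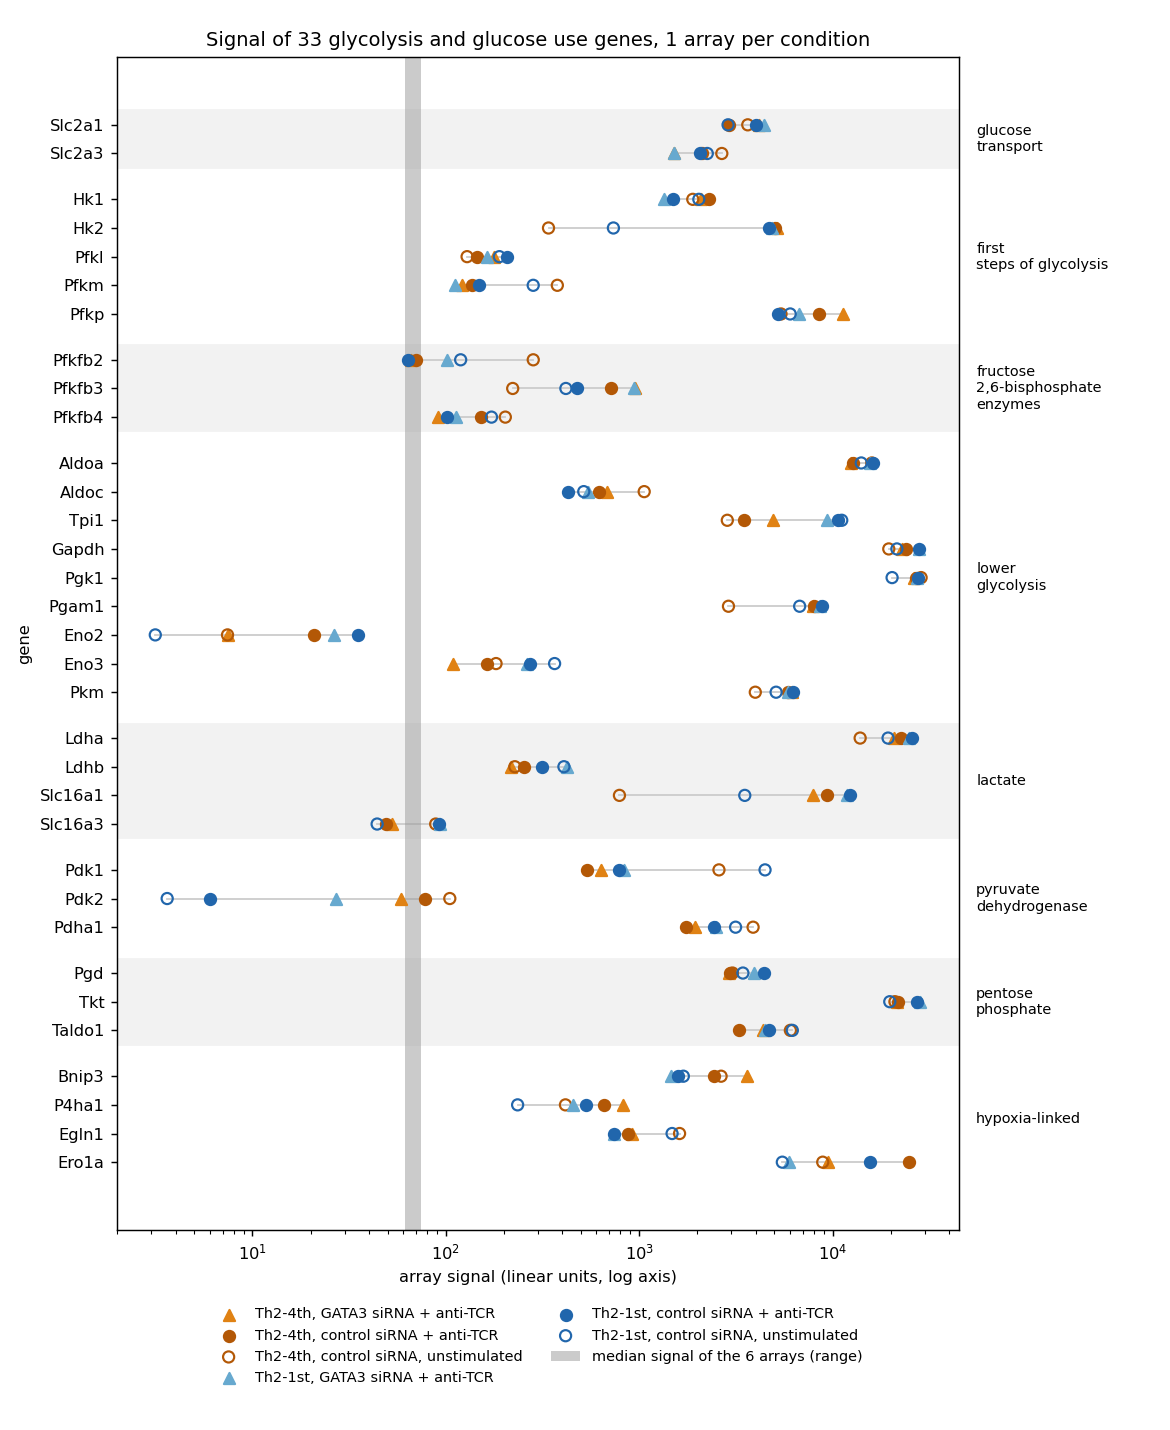
Signal of each of the 33 measured genes on the 6 arrays, on a log axis, grouped by role; each symbol is 1 array and the grey band is the range of the array medians. Hk2, Slc16a1 and Pdk1 spread widely between unstimulated (open circles) and stimulated cells, Ero1a separates the stimulated control arrays from the rest, and Gapdh, Pgk1 and Tkt stay within 2-fold near the top of the signal range.

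Among the members above the array median, the largest anti-TCR ratios lay at the entry of the pathway, at lactate transport and at pyruvate dehydrogenase. Hk2, the inducible hexokinase that traps glucose in the cell as glucose 6-phosphate, was 14.8-fold higher in stimulated than in unstimulated Th2-4th cells and 6.38-fold higher in Th2-1st cells. Slc16a1, which encodes the lactate and pyruvate transporter MCT1, was 11.8-fold and 3.51-fold higher. Pdk1, a kinase that inhibits pyruvate dehydrogenase, went the other way and was 4.83-fold lower in stimulated Th2-4th cells and 5.71-fold lower in Th2-1st cells.

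Counted over all 33 genes, 6 were higher after anti-TCR in Th2-4th cells, against 18.7% of all 18194 genes, and 4 were lower, against 21.6%. In Th2-1st cells 6 were higher, against 17.5% of all genes, and 1 was lower, against 16.9%. Among genes above the array median on at least 1 array of the pair, the counts in Th2-4th cells were 5 higher and 4 lower of 32 members, where 14.6% and 21% of such genes were higher and lower, and in Th2-1st cells 5 and 1 of 31, where the shares were 10.7% and 16.7%. Over all 33 genes, the share that was higher was near that of all genes on the array in both cultures. The median log2 ratio of the members was -0.04 in Th2-4th cells, beside -0.10 over all genes, and 0.20 in Th2-1st cells, beside -0.01. Higher in both cultures were 4 members, Hk2, Slc16a1, Ero1a and the dim Eno2, against 8% of all genes, and lower in both was 1, Pdk1, against 9.27%. None was higher in one culture and lower in the other past 2-fold, against 4.45% of all genes.

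The 250 bases before the start of transcription are shown for Hk2, Slc16a1, Ero1a and Pdk1, because these members were past 2-fold in the same direction in both cultures with signals above the array median. The sequences are RefSeq's, on the GRCm38.p6 build and on the strand of the gene, 5′ to 3′, from chr6:82774455-82774704 (minus strand) for Hk2, chr3:104638414-104638663 (plus) for Slc16a1, chr14:45318573-45318822 (minus) for Ero1a and chr2:71872974-71873223 (plus) for the first listed start of Pdk1. Capitals mark ACGTG, the core of the hypoxia response element, on either strand, where it reads CACGT on the strand shown.
Hk2: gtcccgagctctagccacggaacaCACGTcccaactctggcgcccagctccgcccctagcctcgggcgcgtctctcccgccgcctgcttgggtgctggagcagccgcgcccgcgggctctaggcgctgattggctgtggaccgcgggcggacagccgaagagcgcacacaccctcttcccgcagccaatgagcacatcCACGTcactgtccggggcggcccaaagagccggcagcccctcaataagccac
Slc16a1: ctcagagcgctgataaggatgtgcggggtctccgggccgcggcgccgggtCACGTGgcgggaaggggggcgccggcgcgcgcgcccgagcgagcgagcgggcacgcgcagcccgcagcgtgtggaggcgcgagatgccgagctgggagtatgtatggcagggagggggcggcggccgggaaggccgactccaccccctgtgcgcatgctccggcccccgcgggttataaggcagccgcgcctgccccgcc
Ero1a: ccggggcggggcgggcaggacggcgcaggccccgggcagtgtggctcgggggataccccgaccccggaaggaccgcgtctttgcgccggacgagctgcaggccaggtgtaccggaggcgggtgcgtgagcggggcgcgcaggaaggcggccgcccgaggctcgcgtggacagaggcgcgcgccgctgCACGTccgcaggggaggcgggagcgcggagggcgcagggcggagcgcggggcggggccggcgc
Pdk1: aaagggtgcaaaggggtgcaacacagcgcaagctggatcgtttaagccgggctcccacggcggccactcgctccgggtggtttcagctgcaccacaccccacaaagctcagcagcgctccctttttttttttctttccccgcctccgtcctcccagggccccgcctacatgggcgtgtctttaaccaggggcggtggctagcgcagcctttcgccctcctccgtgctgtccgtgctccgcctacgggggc

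Hk2 held ACGTG at 2 places, 226 and 52 bases before the start, and Ero1a at 1, 63 bases before it. In Slc16a1 it lay on both strands at 1 place as CACGTG, the E-box bound by Myc and USF proteins, which contains ACGTG. Neither listed start of Pdk1 held one. Of the 37 listed genes, 36 had an entry (Slc2a3 had none), and 17 of these (47.2%) held ACGTG, beside 18.5% of all 27025 genes and 26.8% of the 7272 genes above the array median on all 6 arrays. A gene counts here if any of its listed starts holds the motif. Entries on 1 chromosome were left out before counting, so all genes and all starts here are those of the other chromosomes. CACGTG was held by 7 members (19.4%), beside 6.9% of all genes and 10.7% of the genes above the array median. AGATAA, known as a binding motif of GATA3 and its relatives, was in none of the 4 sequences shown and in 3 members (8.3%, Pfkfb1, Pfkfb2 and Pfkm), beside 11.4% of all genes and 6.7% of the genes above the median. Other forms of the GATA motif were not searched, and TGATAA stands near the 5′ end of the Slc16a1 sequence shown. Counted by start, 21 of the 56 starts of members (37.5%) held ACGTG, beside 16.6% of all starts, 12.5% held CACGTG, beside 6.0%, and 10.7% held AGATAA, beside 10.0%. The list includes genes placed on it as hypoxia-linked. The windows of the members had a median G and C content of 60.7%, that of all genes being 52.4% and that of the genes above the array median 60.2%. These are matches of letters and say nothing of binding.

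By sample, Hk2 gave 5159 (GATA3 siRNA), 5023 (stimulated control) and 339.6 (unstimulated control) in Th2-4th cells, and 4886 (GATA3 siRNA), 4692 (stimulated control) and 735 (unstimulated control) in Th2-1st cells. All 4 stimulated arrays lay close together and far above both unstimulated arrays, of which the Th2-4th array was the lower. Its log2 ratios of 3.89 in Th2-4th and 2.67 in Th2-1st cells stood against spreads of 0.95 and 0.76. Of the 10429 genes above the array median in both pairs, 771 were higher past 2-fold in both cultures, and by the smaller of its log2 ratios Hk2 came at place 157. Hk1, the constitutive hexokinase, gave 2087 (GATA3 siRNA), 2282 (stimulated control) and 1892 (unstimulated control) in Th2-4th cells, and 1349 (GATA3 siRNA), 1489.8 (stimulated control) and 2034 (unstimulated control) in Th2-1st cells. None of its ratios reached 2-fold.

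Slc16a1 gave 7886 (GATA3 siRNA), 9356 (stimulated control) and 790.2 (unstimulated control) in Th2-4th cells, and 11913 (GATA3 siRNA), 12344 (stimulated control) and 3514 (unstimulated control) in Th2-1st cells. It too was higher on every stimulated array, most steeply in Th2-4th cells, whose unstimulated array had the lowest of the 6 values. The log2 ratios were 3.57 and 1.81 in Th2-4th and Th2-1st cells, with spreads of 0.89 and 0.45, and the place among the 771 genes was 310. A further probe set of Slc16a1 was dim, between 1.30 and 75.7, and above the array median on 1 of the 6 arrays. Slc16a3, the lactate exporter MCT4, gave 52.9 (GATA3 siRNA), 49.3 (stimulated control) and 88.6 (unstimulated control) in Th2-4th cells, and 93.1 (GATA3 siRNA), 92.7 (stimulated control) and 44.1 (unstimulated control) in Th2-1st cells. These signals lay around the array median, and the anti-TCR log2 ratio was -0.85 in Th2-4th cells and 1.07 in Th2-1st cells.

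Pdk1 gave 632 (GATA3 siRNA), 536 (stimulated control) and 2584 (unstimulated control) in Th2-4th cells, and 833 (GATA3 siRNA), 784 (stimulated control) and 4474 (unstimulated control) in Th2-1st cells. Both unstimulated arrays were above all 4 stimulated arrays. All 4 probe sets of Pdk1 showed this, with log2 ratios between -3.06 and -2.27 in Th2-4th cells and between -2.51 and -1.92 in Th2-1st cells, and by the smaller change Pdk1 came at place 141 of the 1272 genes above the median that were lower in both cultures. Pdk2, a kinase of the same family, gave 59.0 (GATA3 siRNA), 77.7 (stimulated control) and 105 (unstimulated control) in Th2-4th cells, and 27.0 (GATA3 siRNA), 6.02 (stimulated control) and 3.62 (unstimulated control) in Th2-1st cells. It was above the array median on 2 of the 6 arrays, and its low signals in Th2-1st cells make the ratios that rest on them imprecise (spread 1.97 for anti-TCR). Pdha1, the catalytic subunit of pyruvate dehydrogenase itself, gave 1933 (GATA3 siRNA), 1746 (stimulated control) and 3880.4 (unstimulated control) in Th2-4th cells, and 2499 (GATA3 siRNA), 2439 (stimulated control) and 3150.4 (unstimulated control) in Th2-1st cells. It was past 2-fold lower after stimulation in Th2-4th cells (-1.15, spread 0.89) and within its spread of 0.63 in Th2-1st cells (-0.37). A second probe set gave -0.72 in Th2-4th and 0.07 in Th2-1st cells.

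**Figure D2:**
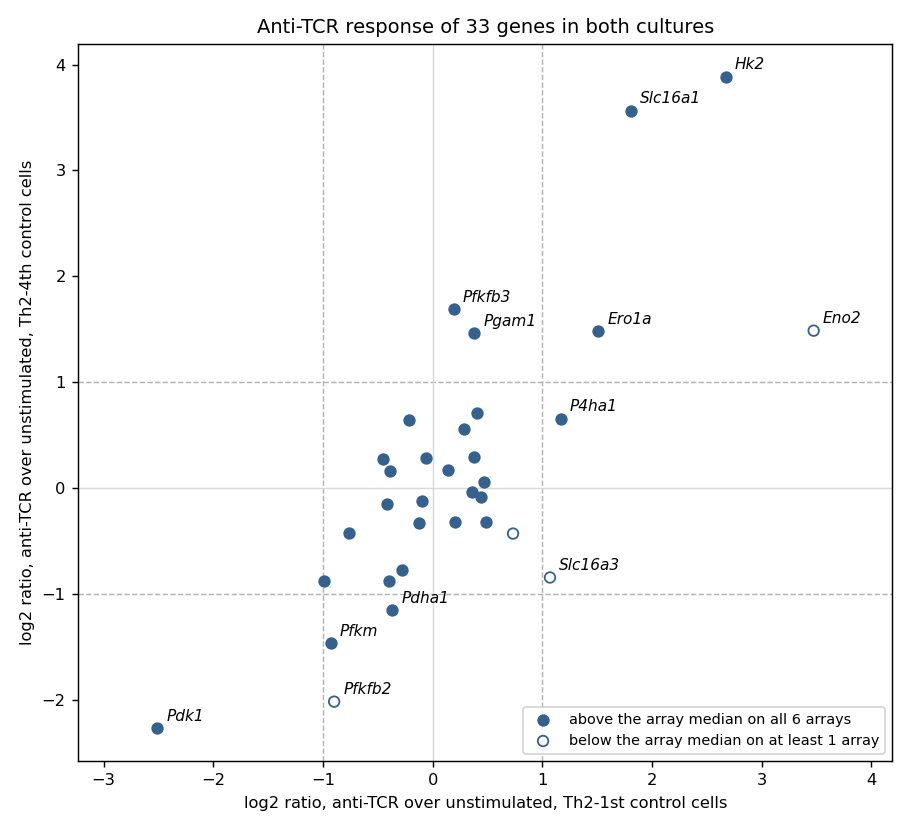
Log2 ratio of anti-TCR stimulated over unstimulated control siRNA cells in Th2-4th cells (vertical axis) and Th2-1st cells (horizontal axis), 1 point per gene; dashed lines mark 2-fold, and open points were below the array median on at least 1 array. Hk2 and Slc16a1 stand at the top right and Pdk1 at the bottom left, while most genes lie within 2-fold in both cultures.

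The enzymes around fructose 6-phosphate did not move as one. Pfkfb3, which makes fructose 2,6-bisphosphate, the allosteric activator of phosphofructokinase, gave 947 (GATA3 siRNA), 716 (stimulated control) and 222 (unstimulated control) in Th2-4th cells, and 937 (GATA3 siRNA), 478 (stimulated control) and 418 (unstimulated control) in Th2-1st cells. It was 3.23-fold higher after anti-TCR in Th2-4th cells (log2 1.69, spread 1.02) and 1.14-fold in Th2-1st cells, and its second probe set was below the array median on all arrays and gave -0.23 in Th2-4th cells. Pfkfb2, another enzyme of this family, gave 66.2 (GATA3 siRNA), 69.8 (stimulated control) and 283 (unstimulated control) in Th2-4th cells, and 102 (GATA3 siRNA), 64.0 (stimulated control) and 119 (unstimulated control) in Th2-1st cells. Its unstimulated signal was the higher one in both cultures, with log2 ratios of -2.02 in Th2-4th and -0.90 in Th2-1st cells, but the stimulated control signals lay at the array median. Its 3 dimmer probe sets gave -0.30, -0.10 and 1.23 in Th2-4th and -2.32, 0.57 and -2.84 in Th2-1st cells, and averaged over all 4 probe sets the Th2-4th ratio was -0.30, so its 2-fold call there rests on 1 probe set. Pfkfb4, the fourth of the family, gave 91.2 (GATA3 siRNA), 152 (stimulated control) and 203 (unstimulated control) in Th2-4th cells, and 113 (GATA3 siRNA), 101 (stimulated control) and 172 (unstimulated control) in Th2-1st cells. Its ratios were all within 2-fold.

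Of the phosphofructokinases, the muscle type Pfkm gave 121 (GATA3 siRNA), 137 (stimulated control) and 377 (unstimulated control) in Th2-4th cells, and 112 (GATA3 siRNA), 149 (stimulated control) and 283 (unstimulated control) in Th2-1st cells. It was lower on all 4 stimulated arrays, at log2 -1.46 in Th2-4th and -0.93 in Th2-1st cells, with spreads of 0.98 and 0.88. The platelet type Pfkp gave 11277 (GATA3 siRNA), 8467 (stimulated control) and 5411 (unstimulated control) in Th2-4th cells, and 6743 (GATA3 siRNA), 5194 (stimulated control) and 6035 (unstimulated control) in Th2-1st cells. By the probe set used its anti-TCR ratios were within 2-fold, at 0.65 in Th2-4th cells and -0.22 in Th2-1st cells. Its 2 dimmer probe sets, above the array median on all arrays, gave 1.03 and 0.76 in Th2-4th and -0.45 and -0.15 in Th2-1st cells. For stimulated Th2-4th over Th2-1st cells they gave 1.69 and 0.61, where the one used gave 0.71. The liver type Pfkl gave 177 (GATA3 siRNA), 145 (stimulated control) and 129 (unstimulated control) in Th2-4th cells, and 163 (GATA3 siRNA), 208 (stimulated control) and 189 (unstimulated control) in Th2-1st cells. By the probe set used it was within 2-fold in all 6 comparisons. Another probe set of Pfkl, above the array median on all arrays, gave -1.70 for unstimulated Th2-4th over Th2-1st cells. The one used and the remaining one gave -0.55 there.

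At glucose transport, Slc2a1, which encodes GLUT1, gave 4143 (GATA3 siRNA), 2910.1 (stimulated control) and 3642 (unstimulated control) in Th2-4th cells, and 4414 (GATA3 siRNA), 4030.0 (stimulated control) and 2880.2 (unstimulated control) in Th2-1st cells. Slc2a3, which encodes GLUT3, gave 1508 (GATA3 siRNA), 2123 (stimulated control) and 2674 (unstimulated control) in Th2-4th cells, and 1507 (GATA3 siRNA), 2068 (stimulated control) and 2249 (unstimulated control) in Th2-1st cells. Neither transporter RNA was past 2-fold after anti-TCR, with log2 ratios of -0.32 and 0.48 for Slc2a1 and -0.33 and -0.12 for Slc2a3 in Th2-4th and Th2-1st cells, all within the spreads of the probe sets used. The probe sets disagree in part. The 2 dimmer ones of Slc2a1 gave -0.34 and 0.43 in Th2-4th and 0.71 and 0.92 in Th2-1st cells, beside a spread of 0.63 for the one used. Of Slc2a3, the brightest probe set that cannot cross-hybridise was below the array median on all arrays and gave 0.06 in Th2-4th and 1.69 in Th2-1st cells.

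In lower glycolysis, Pgam1, the phosphoglycerate mutase, gave 7955 (GATA3 siRNA), 7981 (stimulated control) and 2894 (unstimulated control) in Th2-4th cells, and 8628 (GATA3 siRNA), 8788 (stimulated control) and 6756 (unstimulated control) in Th2-1st cells. The unstimulated Th2-4th array stood alone at the bottom, so the anti-TCR ratio was 1.46 in Th2-4th cells, past its spread of 0.89, and 0.38 in Th2-1st cells. Aldolase Aldoa gave 12486 (GATA3 siRNA), 12751 (stimulated control) and 15950.5 (unstimulated control) in Th2-4th cells, and 15663 (GATA3 siRNA), 16209.8 (stimulated control) and 14066 (unstimulated control) in Th2-1st cells, and all of its ratios were within 2-fold. Ldha, the lactate dehydrogenase subunit that favours lactate formation, gave 20829 (GATA3 siRNA), 22701 (stimulated control) and 13884 (unstimulated control) in Th2-4th cells, and 24822 (GATA3 siRNA), 25629.9 (stimulated control) and 19355 (unstimulated control) in Th2-1st cells. Its anti-TCR log2 ratios of 0.71 in Th2-4th and 0.41 in Th2-1st cells were under 2-fold. Eno2, the neuronal enolase, gave 7.48 (GATA3 siRNA), 20.8 (stimulated control) and 7.43 (unstimulated control) in Th2-4th cells, and 26.4 (GATA3 siRNA), 35.0 (stimulated control) and 3.14 (unstimulated control) in Th2-1st cells. All of these lay under the array median, and its 2-fold calls (log2 1.49 and 3.48 for anti-TCR in Th2-4th and Th2-1st cells) stood against spreads of 2.60 and 1.97.

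Of the hypoxia-linked members, Ero1a, the oxidase that drives disulfide bond formation in the endoplasmic reticulum, was 2.79-fold higher after anti-TCR in Th2-4th and 2.85-fold higher in Th2-1st cells. P4ha1, a catalytic subunit of collagen prolyl 4-hydroxylase, gave 823 (GATA3 siRNA), 654 (stimulated control) and 416 (unstimulated control) in Th2-4th cells, and 454 (GATA3 siRNA), 528 (stimulated control) and 235 (unstimulated control) in Th2-1st cells. It was higher on the stimulated arrays, past 2-fold only in Th2-1st cells (log2 1.17, spread 0.84) and at 0.65 in Th2-4th cells, a difference between cultures that was not tested. Egln1, the prolyl hydroxylase that marks HIF for degradation, ranged over 739 to 1617 and was just within 2-fold, at -0.88 in Th2-4th and -0.99 in Th2-1st cells. Bnip3, a mitophagy receptor, ranged over 1468 to 3611 with log2 ratios of -0.12 and -0.09. In the pentose phosphate pathway Pgd, a dehydrogenase, ranged over 2914 to 4408 and Taldo1, the transaldolase, over 3294 to 6191. None of Pgd, Tkt and Taldo1 was past 2-fold, the largest ratio being -0.88 for Taldo1 in Th2-4th cells.

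The wider pathway list held 67 genes, 62 of them measured. After anti-TCR 13 of these were higher and 13 lower in Th2-4th cells, where 18.7% and 21.6% of all genes were, and 11 were higher and 10 lower in Th2-1st cells, where 17.5% and 16.9% were. Myc, the transcription factor, gave 3955 (GATA3 siRNA), 5218 (stimulated control) and 299 (unstimulated control) in Th2-4th cells, and 7371 (GATA3 siRNA), 4939 (stimulated control) and 1841 (unstimulated control) in Th2-1st cells, and its log2 ratio was 4.12 in Th2-4th and 1.42 in Th2-1st cells. Pdp1, the phosphatase that opposes the pyruvate dehydrogenase kinases, was higher in both cultures (2.46 and 2.02), as was Vegfa (3.75 and 2.43). Txnip, which restrains glucose uptake, gave 1685 (GATA3 siRNA), 1150.1 (stimulated control) and 17221 (unstimulated control) in Th2-4th cells, and 447 (GATA3 siRNA), 314 (stimulated control) and 3706 (unstimulated control) in Th2-1st cells. It was the gene of this list that was furthest lower after stimulation in both cultures, at -3.90 in Th2-4th and -3.56 in Th2-1st cells among genes above the median, and Ddit4, an inhibitor of mTORC1, stood at -3.28 and -3.24.

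Between the cultures, fewer members were past 2-fold with stimulation than without it. In stimulated cells Tpi1 was 3.07-fold lower in Th2-4th than in Th2-1st cells, and Slc16a1, Pgam1 and Hk2 were within 2-fold. In unstimulated cells Slc16a1 was 4.45-fold, Tpi1 3.91-fold, Pgam1 2.33-fold and Hk2 2.17-fold lower in Th2-4th than in Th2-1st cells.

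In stimulated control cells 1 member was higher in Th2-4th than in Th2-1st cells, against 17.2% of all genes, and 1 was lower, against 12.7%. In unstimulated control cells 5 were higher, against 19.5%, and 5 lower, against 12.3%. The actin ratio given above differed most between these unstimulated arrays, at 1.37 (Th2-4th) and 1.02 (Th2-1st), and its part in the counts was not tested. Among genes above the array median on at least 1 array of the pair, 1 of 32 members was higher and 1 lower with stimulation, where 11.4% and 7.93% of such genes were, and 4 and 5 of 32 without stimulation, where 11.9% and 9.22% were. The median log2 ratio of the members was -0.14 with stimulation, beside 0.10 over all genes, and 0.09 without stimulation, beside 0.17. Centring each array on its median signal instead of the authors' trimmed mean moves the ratios of all genes by -0.24 and -0.16 in these comparisons with and without stimulation, by 0.13 and 0.21 for anti-TCR in Th2-4th and Th2-1st cells and by -0.16 for GATA3 siRNA in Th2-1st cells.

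Tpi1, which interconverts the triose phosphates, gave 4926 (GATA3 siRNA), 3476 (stimulated control) and 2855 (unstimulated control) in Th2-4th cells, and 9316 (GATA3 siRNA), 10669 (stimulated control) and 11150.3 (unstimulated control) in Th2-1st cells. Every Th2-4th array was below every Th2-1st array, with log2 ratios of -1.62 with and -1.97 without stimulation against spreads of 0.48 and 0.59. The 3 probe sets of Tpi1 gave ratios between -1.86 and -1.47 with and between -2.17 and -1.79 without stimulation. No neighbouring enzyme showed this gap in stimulated cells: Aldoa stood at -0.35, Gapdh at -0.22 and Pgk1 at -0.03.

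Hk2, Slc16a1 and Pgam1 stood otherwise. Their log2 ratios of Th2-4th over Th2-1st were 0.10, -0.40 and -0.14 in stimulated cells and -1.11, -2.15 and -1.22 in unstimulated cells. Pfkfb3 stood at 0.58 with and -0.91 without stimulation. The lower start of these genes in unstimulated Th2-4th cells and their larger anti-TCR ratio there rest on the same unstimulated arrays and are 1 observation. Myc, of the wider list, stood at 0.08 with and -2.62 without stimulation.

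Aldoc, an aldolase best known from brain, gave 678 (GATA3 siRNA), 621 (stimulated control) and 1061 (unstimulated control) in Th2-4th cells, and 544 (GATA3 siRNA), 427 (stimulated control) and 517 (unstimulated control) in Th2-1st cells. The unstimulated Th2-4th array was the highest, at 1.04 over Th2-1st with a spread of 0.63. Eno3, the muscle enolase, gave 109 (GATA3 siRNA), 164 (stimulated control) and 182 (unstimulated control) in Th2-4th cells, and 262 (GATA3 siRNA), 273 (stimulated control) and 365 (unstimulated control) in Th2-1st cells. It was lower on each Th2-4th array, at -0.74 with stimulation and just past 2-fold without it (-1.01, spread 0.79). Ldhb, the other lactate dehydrogenase subunit, gave 217 (GATA3 siRNA), 254 (stimulated control) and 227 (unstimulated control) in Th2-4th cells, and 422 (GATA3 siRNA), 313 (stimulated control) and 408 (unstimulated control) in Th2-1st cells. Its ratios were -0.30 with and -0.84 without stimulation, and its 3 dimmer probe sets gave -1.14 to -2.15 with stimulation, so the probe sets disagree on its size. Pfkfb2 (1.25, and 0.61 with its probe sets averaged), Eno2 (1.24), Slc16a3 (1.01) and Pdk2 (4.85) were the remaining genes called higher in unstimulated Th2-4th cells, each with at least 1 of the 6 signals under the array median. Pdk2 was also higher in stimulated Th2-4th cells (3.69, spread 1.61).

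**Figure D3:**
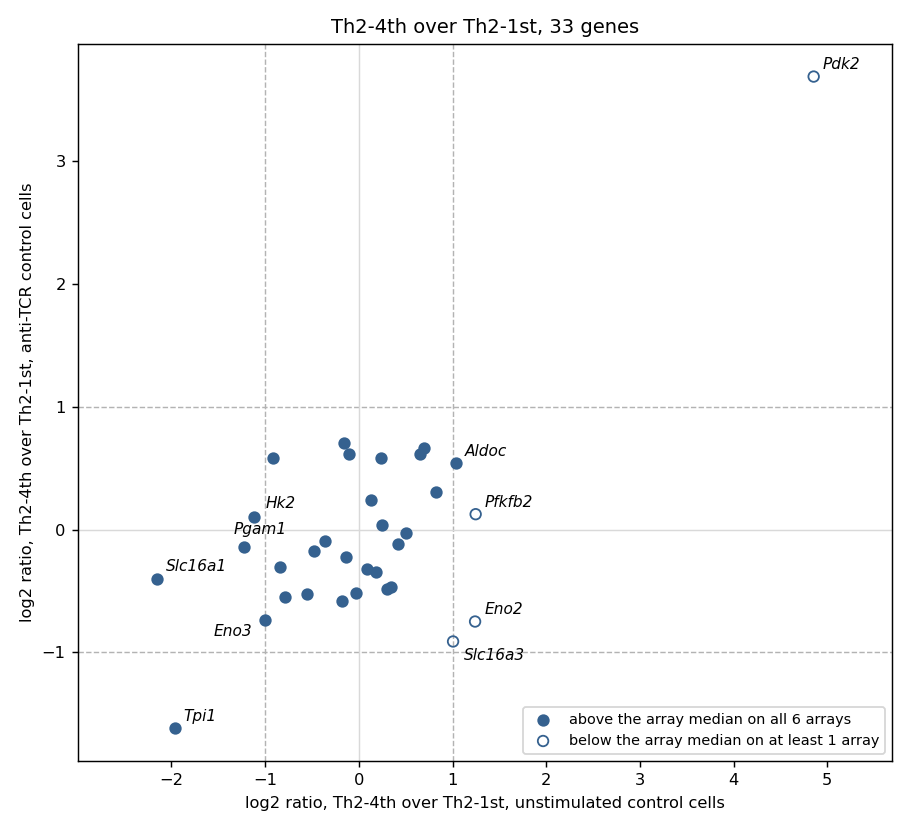
Log2 ratio of Th2-4th over Th2-1st control siRNA cells with anti-TCR (vertical axis) and without it (horizontal axis), 1 point per gene; dashed lines mark 2-fold, and open points were below the array median on at least 1 array. Tpi1 is low on both axes, while Slc16a1, Pgam1 and Hk2 are low without stimulation and within 2-fold with it.

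With GATA3 siRNA most of the pathway stayed within 2-fold of control siRNA, and Ero1a was lower in both cultures. Ero1a was 2.62-fold lower in GATA3 siRNA than in control siRNA Th2-4th cells and 2.63-fold lower in Th2-1st cells. Hk2 and Slc16a1, the genes above the array median that were furthest higher after anti-TCR, were within 2-fold between the siRNAs, at log2 0.04 and 0.06 for Hk2 and -0.25 and -0.05 for Slc16a1 in Th2-4th and Th2-1st cells. The ratio of Slc16a1 in Th2-4th cells was past its spread of 0.20.

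With GATA3 siRNA 0 members were higher in Th2-4th cells, against 10.6% of all genes, and 2 were lower, against 10.6%. In Th2-1st cells 1 was higher, against 13.3%, and 1 lower, against 7.49%. Among genes above the array median on at least 1 array of the pair the counts were 0 and 1 of 30 members in Th2-4th cells, where 3% and 3.49% of such genes were higher and lower, and 0 and 1 of 31 in Th2-1st cells, where 4.41% and 2.26% were. The members' median log2 ratio was -0.02 in Th2-4th and -0.03 in Th2-1st cells, beside 0.01 and 0.05 over all genes. Ero1a was the member lower in both cultures, against 1.9% of all genes, 0 members were higher in both, against 3.01%, and 0 were opposite, against 4.38%.

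Ero1a gave 9472 (GATA3 siRNA), 24809.8 (stimulated control) and 8891 (unstimulated control) in Th2-4th cells, and 5958 (GATA3 siRNA), 15670.5 (stimulated control) and 5497 (unstimulated control) in Th2-1st cells. The stimulated control array was the highest of its culture, and the GATA3 siRNA array lay close to the unstimulated control array in both cultures. The log2 ratios of GATA3 siRNA over control siRNA were -1.39 in Th2-4th and -1.40 in Th2-1st cells, against spreads of 0.20 and 0.12. Set against the unstimulated control array, the GATA3 siRNA array stood at 0.09 in Th2-4th and 0.12 in Th2-1st cells, a comparison that differs in both siRNA and stimulation. Of 10292 genes above the array median in both pairs, 58 were lower past 2-fold with GATA3 siRNA in both cultures, and Ero1a came at place 34 by the smaller of its changes.

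The other probe sets of Ero1a showed the same order for the siRNAs. The next gave 5466 (GATA3 siRNA), 14533 (stimulated control) and 3578 (unstimulated control) in Th2-4th cells, and 3995 (GATA3 siRNA), 9091 (stimulated control) and 4273 (unstimulated control) in Th2-1st cells. The dimmest gave 1879 (GATA3 siRNA), 6187 (stimulated control) and 892 (unstimulated control) in Th2-4th cells, and 1157 (GATA3 siRNA), 3612 (stimulated control) and 947 (unstimulated control) in Th2-1st cells. Over all 3, the siRNA log2 ratios lay between -1.72 and -1.39 in Th2-4th and between -1.64 and -1.19 in Th2-1st cells. With GATA3 siRNA the other probe sets stayed above their unstimulated signal in Th2-4th cells, so the near equality seen with the brightest was not shared there. On the stimulated arrays the summed signal of the 5 mast cell and basophil markers was also lower with GATA3 siRNA. It was 321 (GATA3 siRNA), 1230.2 (stimulated control) and 824 (unstimulated control) in Th2-4th cells. In Th2-1st cells it was 163 (GATA3 siRNA), 325 (stimulated control) and 634 (unstimulated control). The sum was highest in the stimulated control in Th2-4th cells and in the unstimulated control in Th2-1st cells. The part of these markers in the ratio of Ero1a was not tested. Mcpt8 and Cpa3 were the markers of that list above the array median on some arrays. Fcer1a, Ms4a2 and Kit were below it on every array and did not share the fall in Th2-4th cells. Their log2 ratios of GATA3 siRNA over control siRNA were 1.79, 2.28 and 1.04 there, and -0.50, -0.49 and 2.65 in Th2-1st cells. Mcpt8, a basophil protease, gave 171 (GATA3 siRNA), 873 (stimulated control) and 183 (unstimulated control) in Th2-4th cells, and 5.81 (GATA3 siRNA), 7.63 (stimulated control) and 3.01 (unstimulated control) in Th2-1st cells. Cpa3, a carboxypeptidase of mast cells, gave 44.9 (GATA3 siRNA), 320.2 (stimulated control) and 582 (unstimulated control) in Th2-4th cells, and 67.7 (GATA3 siRNA), 255 (stimulated control) and 562 (unstimulated control) in Th2-1st cells. Cpa3 was lower with GATA3 siRNA than in the stimulated control in both cultures and was highest without stimulation.

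**Figure D4:**
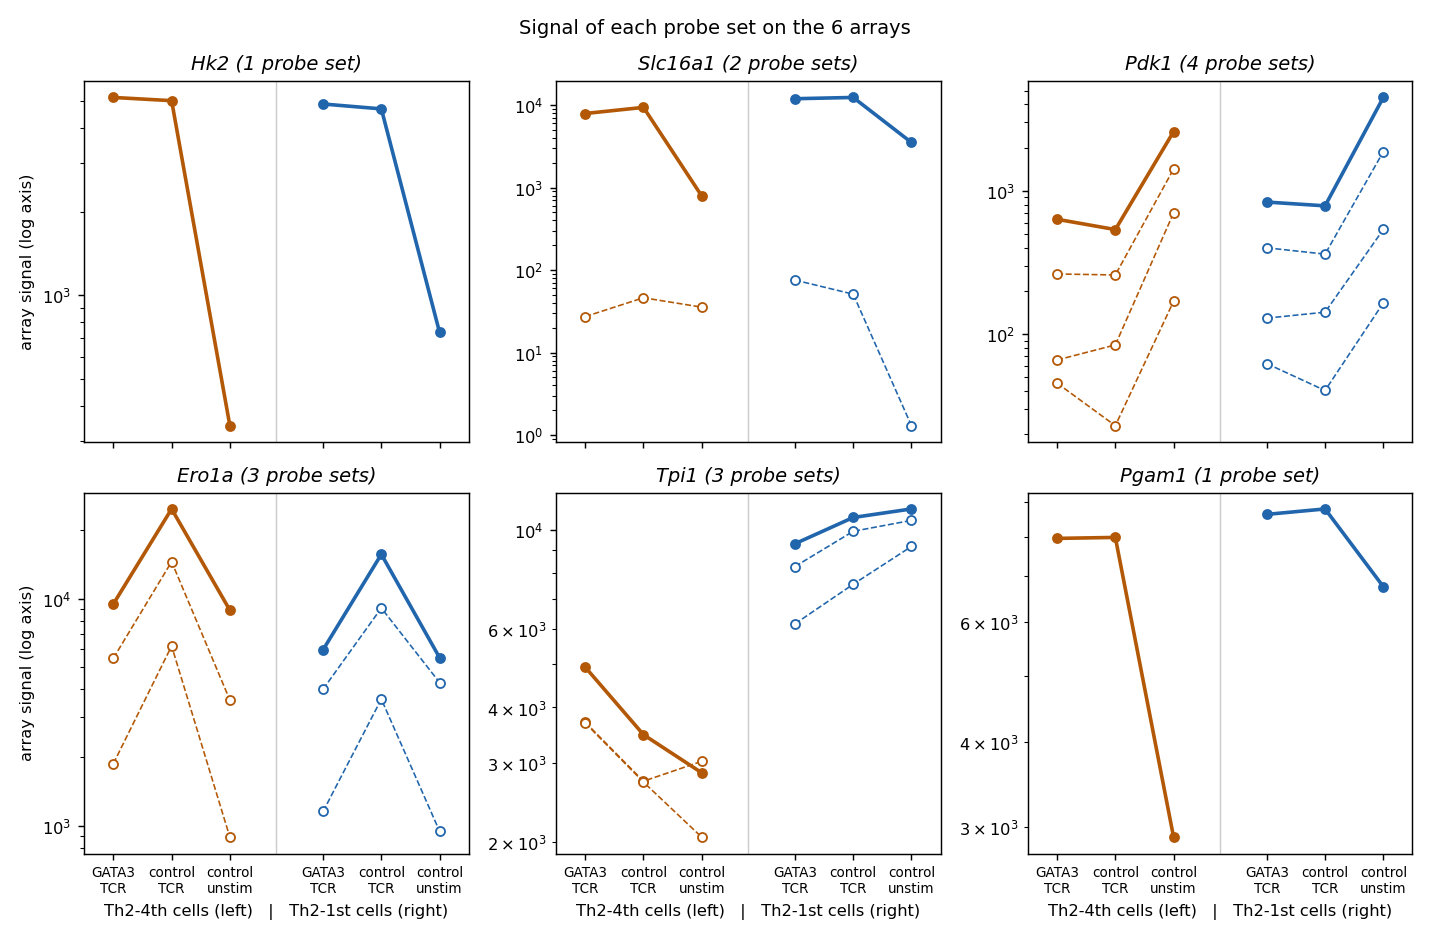
Signal of every probe set of 6 genes on the 6 arrays, on log axes that differ between panels; solid lines are the probe set used and dashed lines the others. Ero1a peaks on the stimulated control array of each culture in all 3 probe sets, Pdk1 is highest without stimulation in all 4, and the Tpi1 signals of Th2-4th cells lie below those of Th2-1st cells.

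Smaller siRNA ratios past the narrow spread, yet under 2-fold, were seen in several members. Slc2a3 stood at -0.49 in Th2-4th and -0.46 in Th2-1st cells, with spreads of 0.24 and 0.16, and its next brightest probe set gave -0.47 and -0.73. Both of these probe sets can cross-hybridise, and its 2 remaining probe sets, below the array median on all arrays, gave 0.41 and 1.80 in Th2-4th and 0.47 and 2.31 in Th2-1st cells, so the probe sets of Slc2a3 disagree on the direction. Pfkp stood at 0.41 and 0.38, and Pfkfb3 at 0.40 and 0.97, against spreads of 0.28 and 0.24. By the probe sets used, these 3 genes stood on the same side in both cultures. Slc2a1 stood at 0.51 in Th2-4th and 0.13 in Th2-1st cells, and Bnip3 at 0.57 and -0.11, past the spread in Th2-4th cells alone, though the difference between the cultures was not tested. The 2 dimmer probe sets of Slc2a1 gave 0.37 and 0.01 in Th2-4th cells. Tpi1 stood at 0.50 in Th2-4th and -0.20 in Th2-1st cells. The 2-fold calls on Eno2 in Th2-4th cells (-1.48, spread 2.40) and on Pdk2 in Th2-1st cells (2.16, spread 2.57) rest on signals below the array median and lie within their spreads. In all, 12 of the 33 members were past their spread in Th2-4th cells, against 33.2% of all genes, and 9 in Th2-1st cells, against 34.5%, so these counts do not set the members apart from other genes.

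**Figure D5:**
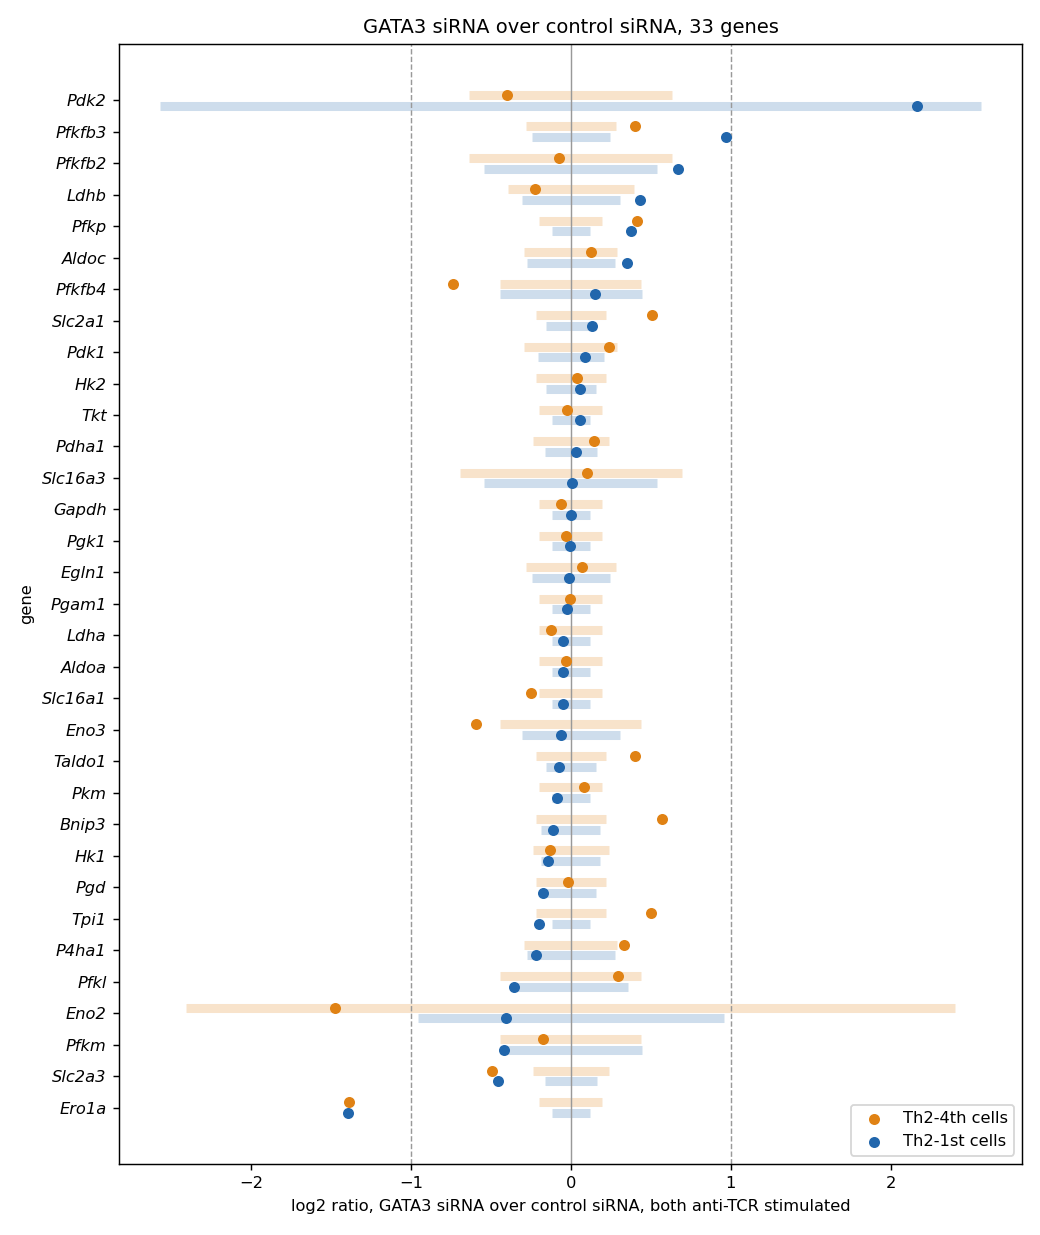
Log2 ratio of GATA3 siRNA over control siRNA in anti-TCR stimulated Th2-4th cells (orange) and Th2-1st cells (blue) for the 33 genes; the bars reach from minus to plus the spread among genes of like signal and dashed lines mark 2-fold. Ero1a lies near -1.4 in both cultures and far outside its bars, and Hk2, Gapdh and Pgk1 lie near 0.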

How the data were processed

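RNA of 6 samples was labelled and hybridised to Affymetrix mouse genome arrays, 1 array per condition. The authors deposited linear signal intensities, 1 for each probe set, which Affymetrix Expression Console produced per the submitters' processing notes. Which version and algorithm it ran is not given in the sources used here. These intensities were used as deposited, since a mean trimmed by 2% at each end is 500.0 on each array. The platform annotation gave 1 gene to 34958 of the 45101 probe sets, several to 932 and none to 9211. RefSeq matched 34754. Each gene was represented by the probe set of highest mean log2 signal. Ratios were taken for 6 pairs of arrays, with a 2-fold threshold and no test. The spread was the scaled median absolute deviation of log2 ratios in 20 bins of signal. Ratios and calls were run on simulated arrays with known changes and noise drawn from that spread, so the spread itself was not checked. The 7 alternatives were averaging probe sets, omission of probe sets that can cross-hybridise, median centring, quantile normalization, low signals raised to the array median, only genes above it, and 1.5-fold. Signals on all arrays are given for members past 2-fold and their paralogues. Of the wider list, up to 5 genes per comparison and direction could be named, by size of ratio. The members and lists were chosen with earlier results of these data known. Python 3.11.15, numpy 2.4.6 and pandas 2.3.3 were used.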

Additional observations from a re-analysis of the deposited data

Results flagged for a closer look

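Slc16a3, the lactate exporter MCT4, went opposite ways after anti-TCR in the 2 cultures, with a log2 ratio of -0.85 in Th2-4th and 1.07 in Th2-1st cells and a difference of -1.92. Each ratio was past its spread of 0.80 in Th2-4th and 0.85 in Th2-1st cells. Its signals lay around the array median, and with signals below it raised to it the ratios were -0.28 in Th2-4th and 0.57 in Th2-1st cells, both within 2-fold and inside those spreads. The difference was not tested.

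Tpi1 went opposite ways with GATA3 siRNA, at 0.50 in Th2-4th and -0.20 in Th2-1st cells, a difference of 0.70 on the log2 scale. Each ratio was past its spread of 0.22 in Th2-4th and 0.12 in Th2-1st cells. Its 3 probe sets lay between 0.44 and 0.50 in Th2-4th and between -0.29 and -0.20 in Th2-1st cells, and the difference was not tested.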

How the results depend on the processing

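Of 120 counts and medians of members under the alternatives, 98 stayed within 1.5 times the reported count or moved the median by less than the comparison's spread. All medians were among them, but that spread is of single genes and is a wide limit for a median. Medians near 0 could change sign (anti-TCR in Th2-4th cells gave 0.12 without probe sets that can cross-hybridise, -0.04 reported). For anti-TCR in Th2-1st cells the members' median was 0.20 as reported, beside -0.01 over all genes. It was -0.01 with quantile normalization, beside -0.05, and -0.02 with low signals raised, beside -0.02. In the other settings it stayed positive and above that of all genes. With a gene's probe sets averaged, members lower for anti-TCR in Th2-1st cells came to 2 (1 reported), members higher and lower in stimulated Th2-4th over Th2-1st cells to 3 and 2 (1 and 1), and GATA3 siRNA in Th2-1st cells to 2 higher members (1). Centring the arrays on their median and quantile normalization each gave 3 members higher in unstimulated Th2-4th cells (5) and 2 lower in stimulated ones (1). With signals below the array median raised to it, 2 members were higher in unstimulated Th2-4th cells, 0 in stimulated ones, 0 in Th2-1st cells given GATA3 siRNA, and 1 was lower in Th2-4th cells given it (2). Among genes above the array median alone, the last counts were also 0 and 1. A 1.5-fold threshold gave 8 and 5 members lower for anti-TCR in Th2-4th and Th2-1st cells, 5 higher and 4 lower in stimulated and 8 higher and 8 lower in unstimulated Th2-4th over Th2-1st cells, and for GATA3 siRNA 4 lower in Th2-4th and 3 higher in Th2-1st cells, as a looser threshold must raise counts. Omitting probe sets that can cross-hybridise changed none of the counts by over 1.5 times.

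Of 33 calls on members, 17 stayed past 2-fold under all 5 alternatives for single genes, Hk2, Ero1a, Pdk1 and Tpi1 among them. Not every alternative could change every value. Hk2 has 1 probe set, bright on all arrays, so only median centring and quantile normalization could move its ratios. Eno2 reversed after anti-TCR with low signals raised, to -0.026 in Th2-4th and -0.017 in Th2-1st cells, since both its signals then equal the array median. Slc16a1 in unstimulated Th2-4th over Th2-1st cells reversed to 1.31 with averaged probe sets, through its dim probe set with a signal of 1.30. With that average the anti-TCR ratio of P4ha1 was 0.88 in Th2-1st cells, and those of Pdha1 and Pfkfb3 were -0.94 and 0.73 in Th2-4th cells, that of Pfkfb2 was -0.30 there and its unstimulated Th2-4th over Th2-1st ratio 0.61, and centring put Aldoc at 0.87 between unstimulated cultures. Over all genes, the higher share of calls was 62.3% (centred) against 51.0% for anti-TCR in Th2-1st cells, 49.5% (quantile) against 61.3% between unstimulated and 44.0% (centred) against 57.5% between stimulated cultures, and 51.9% (quantile) against 64.1% for GATA3 siRNA in Th2-1st cells. With 1 array per condition, leaving out a replicate was not possible. No paired analysis was possible because each condition had 1 array. Ratios of genes below the array median are limited by their dim signal.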

Other observations

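In the wider pathway list, 9 of 62 measured genes were higher and 8 lower in stimulated Th2-4th than in stimulated Th2-1st cells, where 17.2% and 12.7% of all genes were, and 9 were higher and 6 lower in unstimulated cells, where 19.5% and 12.3% were. Txnip stood at 1.87 with and 2.22 without stimulation, and Ndrg1, a gene induced by hypoxia, at 1.21 and 1.37. Egln3, a HIF prolyl hydroxylase, was lower in Th2-4th cells in both states (-1.46 and -1.26). Epas1, which encodes HIF-2 alpha, gave 3446 (GATA3 siRNA), 6721 (stimulated control) and 2392 (unstimulated control) in Th2-4th cells, and 1895 (GATA3 siRNA), 2979 (stimulated control) and 3822 (unstimulated control) in Th2-1st cells. With anti-TCR it was higher in Th2-4th than in Th2-1st cells (1.17).

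With GATA3 siRNA 4 genes of this list were higher and 3 lower in Th2-4th cells, where 10.6% and 10.6% of all genes were, and 2 were higher and 6 lower in Th2-1st cells, where 13.3% and 7.49% were. Some of them were above the array median on at least 1 array of the pair. These were Slc2a6, Fbp2, Gys1 and Hk3 higher and Pygl and Slc2a5 lower in Th2-4th cells, and Hkdc1 and Pklr lower in Th2-1st cells. Of these, none had more than 4 of 6 signals above the array median. Hk3, a hexokinase, gave 175 (GATA3 siRNA) and 82.6 (stimulated control) in Th2-4th cells and 53.0 (GATA3 siRNA) and 23.2 (stimulated control) in Th2-1st cells.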
